A study of Homo sapiens with 8 samples.

Results

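Neurotransmitter receptor genes encode the proteins through which cells sense glutamate, GABA, glycine, acetylcholine, serotonin, dopamine, adrenaline, nucleotides and opioid peptides, and 142 of the 42272 N6-methyladenosine (m6A) peaks of U251 cells were assigned to them. The peaks were chosen by gene name, from the symbol prefixes of the glutamate, GABA, glycine, nicotinic, muscarinic, serotonin, dopamine, adrenergic, P2X, P2Y and opioid receptor families, and 1 antisense name was left out. They belong to 60 of the 16701 gene names of the list, 57 of them RefSeq protein-coding genes and 3 of them serotonin receptor pseudogenes, on 18 chromosomes. The strongest peaks clear of other genes included those of HTR7, ADRA1D and CHRNB1, whereas the median support over all receptor peaks was weaker than over the list as a whole.

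U251 is an established human glioblastoma line, and the study silenced HNRNPC, an RNA-binding protein described as a reader of m6A, with small interfering RNA. The labels name 8 libraries, 2 each of si-NC input, si-HNRNPC input, si-NC at 48 h and si-HNRNPC at 48 h, and do not say whether the 48 h libraries are the immunoprecipitates. The peak list has 1 row per peak, and its title sets siRNA immunoprecipitate against siRNA input without saying which siRNA. Its columns name neither library nor transfection and hold no value per library. Replicate error and sequencing depth are therefore unknown, no value below compares the transfections, and each describes a single list.

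Ionotropic receptors are ion channels opened by the transmitter, built from several subunits, while metabotropic receptors pass the signal to G proteins. Most were first studied in neurons, but astrocytes and glioma cells are known to respond to glutamate, ATP and adrenaline as well. N6-methyladenosine is placed on mRNA by a METTL3-containing methyltransferase, often near the stop codon and in the 3′-UTR, at sites with GGAC as a common core. MeRIP-seq finds it as stretches of RNA richer in the antibody-bound fraction than in the input, and the fold enrichment of a peak is the ratio of the bound fraction to the input. A peak gives no expression level, and RNA levels of the receptors were not analysed here.

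Sequence under the peaks could be read for the start of transcripts only, where a RefSeq table of promoter windows (GRCh38.p14) gives the first 50 transcribed bases. Of the 60 genes, 42 matched this table, and in 9 of them a peak covered the window. The letters GGAC stood on the transcribed strand in 2 of these 9 windows (22.2%) and on the other strand in 2 of 9 (22.2%), against 18.9% and 17.6% of all 35116 windows in the table. The 2 windows with GGAC on the transcribed strand belong to GRIK2, a kainate-type glutamate receptor subunit, and P2RY1, an ADP receptor. They are the only receptor windows under a peak with the letters on that strand. The first 30 bases of each are shown 5′ to 3′ from the first transcribed base, with GGAC in capitals. P2RY1 has a further match at base 46 of its window, beyond those shown.
GRIK2, chr6:101398985-101399014, plus strand: gctcgcgcggccGGACattgtgggtgtgcg
P2RY1, chr3:152835131-152835160, plus strand: actccGGACagagctgggcctggggaaggg
The GRIK2 peak over this window had a fold enrichment of 2.51 and a log10 p of −2.72, and the P2RY1 peak, which begins at the first base printed, 3.99 and −3.12. Neither had a false discovery rate under 0.001, the threshold for what is called a firm peak here, and a match of 4 letters is no evidence of a methylated site.

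The caller's false discovery rate (FDR) was under 0.001 in 66 of the 142 receptor peaks (46.5%, 95% exact binomial interval 38.1 to 55), against 62.0% of all peaks. At an FDR under 0.05 the shares were 101 of 142 (71.1%, 62.9 to 78.4) and 81.6%. Counted by gene, 41 of 60 receptor genes (68.3%, 55 to 79.7) had a peak with an FDR under 0.001 and 51 (85.0%, 73.4 to 92.9) had one under 0.05, against 76.7% and 88.7% of all gene names. By peak the interval lay below the background at either threshold, and by gene it included the background. The intervals take each peak as independent and span counting error alone.

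The receptor peaks had higher folds than the list as a whole, together with weaker p. Over the 142 peaks the fold enrichment ran from 1.24 in HTR7 to 42.5 in GRIN2B with a median of 7.74 (95% interval 6.90 to 8.71), against a median of 5.45 over all peaks. The median log10 p was −3.44 (−4.85 to −2.69) against −6.11. Taking the highest fold of each gene, the median was 10.9 (9.26 to 15.3) over the receptor genes and 8.31 over all genes, while the median of each gene's lowest log10 p was −7.06 (−11.8 to −4.70) against −19.0. Receptor peaks covered a median of 585 bases of exon, against 405.

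The folds were not spread evenly. Many folds of the list fall on whole multiples of 1.0893, such as 6.54, 7.63, 8.71 and 9.80, which are 6, 7, 8 and 9 steps. In the receptor genes 91 of 142 peaks (64.1%, 55.6 to 72.0) stood at such a whole step, within 0.005 for folds under 10 and 0.05 above, against 33.4% of all peaks. Among folds under 10 alone, where the steps are better resolved, the shares were 52 of 94 (55.3%, 44.7 to 65.6) and 25.6%. Some pairs of fold and p recur across the list. A fold of 6.54 with a p of 0.049 stands on 1502 rows, 8 of them in receptor genes (among them CHRNE, GABRB1, GRIA4, GRIK1, GRIN2B, HTR7P1 and P2RY6), and 7.63 with 0.027 stands on 1003 rows, 6 of them in receptor genes. Pairs found on 100 or more rows made up 33 of the 142 receptor peaks (23.2%, 16.6 to 31.1) and 14.6% of all peaks, and 0 of the 66 receptor peaks with an FDR under 0.001 (0 to 5.44) against 1.11% of all such peaks. What sets the step was not given in the sources used here, and the reads behind a peak cannot be recovered from the list.

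High folds and low p were mostly found in different receptor peaks. Of the 19 peaks with a fold of 20 or more, 18 stood at a whole step, and of the 21 peaks with a log10 p of −20 or lower, 2 did, in CHRNE and P2RX6. Neither share was counted over all peaks, so this split cannot be called particular to receptor genes. The 35 peaks with an FDR under 0.001 at a whole step had a median fold of 21.8 and a median log10 p of −7.16, whereas the 31 such peaks off the steps had 5.70 and −34.1. Whole steps thus held 35 of 66 firm receptor peaks (53.0%, 40.3 to 65.4) against 20% of all firm peaks, and 56 of the 76 others (73.7%, 62.3 to 83.1) against 55.2%. Where at least 20 rows shared a p, 52 of 123 receptor peaks (42.3%, 33.4 to 51.5) had the highest fold listed at that p, against 23.9% of all such peaks. The 19 genes without a peak at an FDR under 0.001 held 26 peaks, and in 17 of the 19 every one of them was at a whole step. The like share over all genes was not counted, since the 55.2% is a share of peaks.

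**Figure D1:**
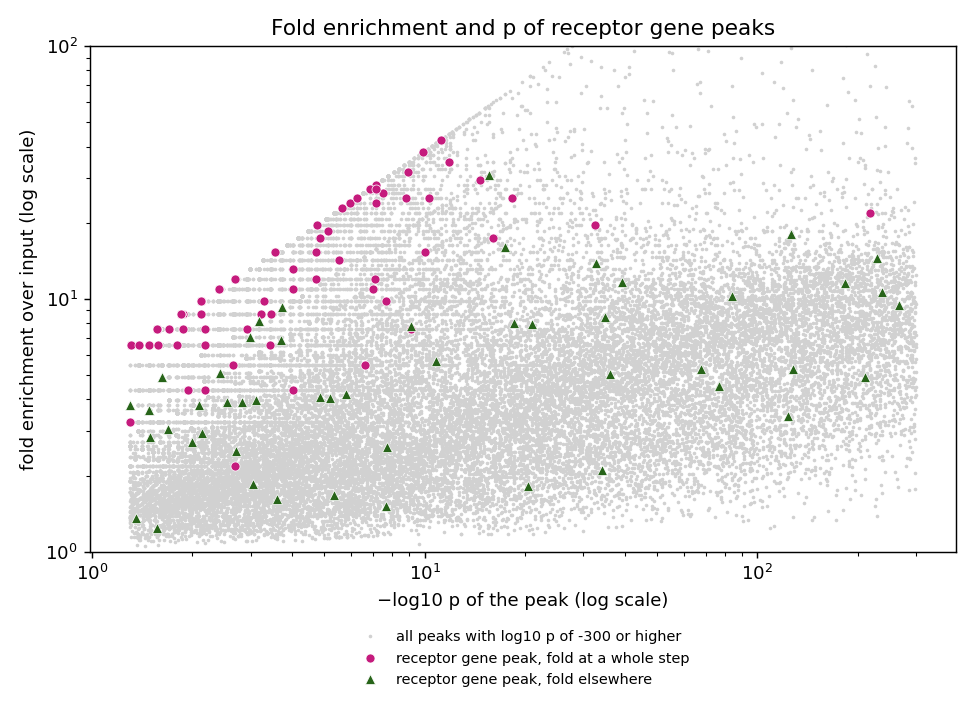
Fold enrichment over input (vertical, log scale to 100) against −log10 p (horizontal, log scale) for the receptor gene peaks, as circles where the fold is at a whole step and triangles elsewhere, over all peaks with a log10 p of −300 or higher in grey. Many circles lie on or near the upper edge of the grey cloud, while others lie below it. The peaks of lowest p, such as that of HTR7 at 9.45, are mostly triangles at moderate folds.

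In U251 cells a row was found for 57 of the 124 protein-coding receptor genes that RefSeq lists under these prefixes (46.0%, 37.0 to 55.1), against 12256 of 20056 protein-coding genes (61.1%). The families differed widely. Ionotropic glutamate receptors had 12 of 18 genes with a row, nicotinic receptors 10 of 16, adrenergic receptors 5 of 9 and GABA-A receptors 8 of 19, whereas serotonin receptors had 2 of 17. A gene without a row may be unmethylated, unexpressed or below detection, which the list cannot tell apart.

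**Figure D2:**
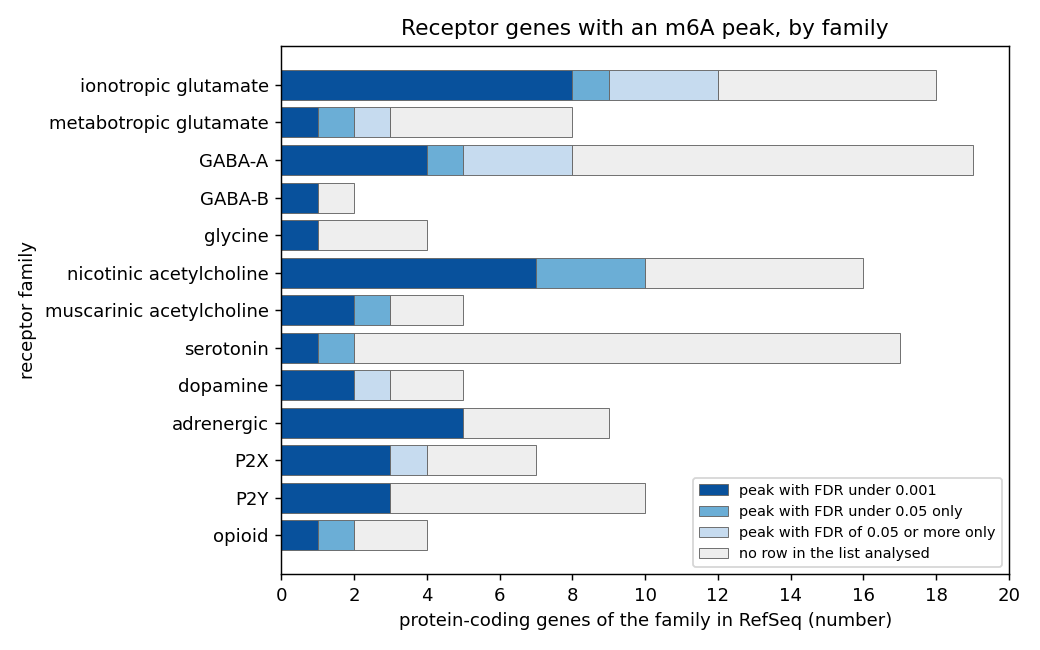
Number of RefSeq protein-coding genes in each receptor family (horizontal), divided by the firmest peak of each gene. Ionotropic glutamate receptors had 8 of 18 genes with an FDR under 0.001, nicotinic receptors 7 of 16, and serotonin receptors 1 of 17.

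Among the ionotropic glutamate receptors, the main excitatory channels of the brain, the NMDA-type subunit gene GRIN2B and the kainate-type gene GRIK3 had the most peaks. GRIN2B had 7, with folds of 42.5 in an exon (log10 p −11.2), 31.0 and 27.2 in the 3′-UTR (−15.6 and −6.86), and 8.71, 6.54, 6.54 and 2.83 in the other 4, none of which reached an FDR under 0.001. GRIK3 had 8, all in the 3′-UTR, of which 3 passed, at folds of 24.0, 22.9 and 5.70. The one with the lowest p was that of 5.70 (log10 p −10.8), so that rank by fold and rank by p disagreed in this gene. GRIK2 had the lowest p of the family outside overlapping genes, with a fold of 5.28 and a log10 p of −67.5 in the 3′-UTR at chr6:102065806-102068974.

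GRIN2C and GRIN2D, which encode other glutamate-binding NMDA subunits, had firm peaks at 17.4 and 13.1 and at 28.3, with log10 p no lower than −7.16. GRIN2C had 4 more peaks of folds from 3.27 to 12 that did not pass. GRIK4, another kainate subunit, had a firm peak at 9.26 (−3.73). GRIN1, the subunit that NMDA receptors require, had no row, nor had GRIN2A, GRIA1, GRIA3, GRID1 and GRIK5. The AMPA receptor genes were weak where present, with GRIA2 at 7.63 and 6.54 (log10 p −2.19 in each) and GRIA4 at 6.54 (−1.31). GRIK1 and GRIN3A had 1 peak each, again at 6.54 and above an FDR of 0.05.

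GRIN3B, a glycine-binding NMDA subunit gene, had a log10 p of −124 with a fold of 3.45, but only 85 of the 329 bases of that peak lay inside GRIN3B by RefSeq. The peak also touched TMEM259, on the opposite strand. Its other peak, at 15.3 and a log10 p of −3.56, did not reach an FDR under 0.001.

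The metabotropic glutamate family had a row for 3 of 8 genes, and 3 of its 7 peaks had an FDR under 0.001. In this family GRM7 and GRM8, which inhibit adenylyl cyclase, had 1 weak peak each, at 8.71 (log10 p −2.13) and 7.63 (−1.57). GRM3 and GRM5 were among the genes of this family without a row.

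GABA is the main inhibitory transmitter, and in the GABA-A family of chloride channels the firm peaks lay in GABRE, GABRQ, GABRR2 and GABRA3. GABRE, the epsilon subunit, had 3 peaks, all with an FDR under 0.001 and none at a whole step, at 5.05 (log10 p −36.0) and 1.82 (−20.4) in the 3′-UTR and 1.68 (−5.35) in an exon. GABRQ, the theta subunit, had 8.02 (−18.5) and 5.45 (−6.63) among 4 peaks, all of them inside the span of the noncoding gene MAGEA3-DT. GABRR2, a rho subunit, had 10.9 (−7.01). GABRA3 had a log10 p of −34.1 at a fold of 2.10, in a row whose named exon belongs to another gene. The peaks of GABRA2 at 8.71 and of GABRB1 at 6.54 did not reach an FDR under 0.05, and GABRP, the pi subunit, was at 4.36 and 3.63. No row was found for 11 of the 19 genes, GABRB2 and GABRD among them.

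For the metabotropic GABA-B receptor, GABBR1 had 27.2 in the 5′-UTR (log10 p −6.86), 19.6 (−4.75) and 1.86 (−3.05), and its partner subunit GABBR2 had no row. The peak at 19.6 had no base inside GABBR1 by RefSeq and touched UBD and OR2I1. In the glycine receptor family, GLRB, the beta subunit that anchors the receptor at synapses, had 1 peak at 1.52 (log10 p −7.67), the lowest fold of any receptor peak with an FDR under 0.001.

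All 10 nicotinic genes with a row had a peak at an FDR under 0.05, and 7 had one under 0.001, where 88.7% and 76.7% of all gene names did. These counts are near the background. The strongest clear of other genes was that of CHRNB1, the beta subunit of the muscle receptor, at 5.26 with a log10 p of −128 (chr17:7455576-7457083, labelled 5′-UTR). CHRNA10 and CHRNA9, which form the receptor of cochlear hair cells, had 25.1 (−10.3) and, in CHRNA9, 10.9 (−4.01) and 4.05 (−5.18). CHRNA3, a subunit of ganglionic receptors, had 14.2 (−5.52). CHRNA1, CHRNA7 and CHRNB2 stayed between 7.63 and 12 without reaching an FDR under 0.001. The CHRNA1 row had only 82 of its 1680 bases inside CHRNA1 and shared bases with a row of WIPF1. The CHRNA7 rows touched LOC102724078.

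Other nicotinic genes had a strong peak that touched a neighbour. CHRNE, the adult muscle subunit, had the most rows of any receptor gene, 9, and its 2 firm peaks, at 21.8 and 4.91 (log10 p −218 and −210), overlapped each other and touched MINK1 on the opposite strand. Another 6 of its rows lay wholly inside CHRNE by RefSeq and also touched C17orf107. The remaining row had no base in CHRNE and touched GP1BA. CHRNG, the fetal muscle subunit, had 1 row at 14.5 (−229), with 2976 of its 5388 bases inside CHRNG, and it touched TIGD1 on the opposite strand. CHRNA5 had overlapping peaks at 4.57 and 4.51 (−76.8 in each), the first of them reaching into CHRNA3 on the opposite strand and the second lying wholly in CHRNA5, clear of other genes. The libraries were made with a strand-marking kit, and whether the peak caller used the strand was not given in the sources used. The peaks that touch a gene of the opposite strand therefore cannot be assigned to either gene.

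Muscarinic receptors are the G-protein-coupled receptors of acetylcholine. CHRM3, which raises calcium, had a firm 3′-UTR peak at 25.1 (log10 p −18.3) and weaker ones at 8.71 and 7.63. CHRM4 had 18.5 (−5.13) and CHRM2 9.80 (−2.13), and all 5 peaks of the family stood at a whole step. CHRM1 and CHRM5 had no row.

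The strongest receptor peak of the list was that of HTR7, a serotonin receptor that raises cyclic AMP. Its row at chr10:90742379-90749543 had a fold of 9.45 and a log10 p of −266, and that at chr10:90740823-90741421 a fold of 10.6 and −237, both in the 3′-UTR and clear of other genes. The 2 remaining peaks were weak, at 2.72 (−2.00) in the 5′-UTR and 1.24 (−1.57), the lowest fold of all receptor peaks. Of all peaks in the list, 5.85% had a lower log10 p than the first of these rows, and 77.1% had a lower fold.

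HTR7 stood apart from its family, in which the only other coding gene with a row was HTR1D at 10.9 (log10 p −2.41). Its pseudogene HTR7P1 had 6 rows, at 17.4 (−16.0), 7.84 and 7.63 (−9.11 in each, overlapping), 6.54, 5.45 and 3.81, all inside GPRC5D-AS1. Reads of a pseudogene and its parent can be hard to assign, and how the authors treated them was not stated in the sources used. HTR5BP had 10.3 (−83.8) in a row that touches CCDC93 on the opposite strand, and the HTR1DP1 row had no base inside that pseudogene and lay in ERC1.

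Dopamine and adrenergic receptors respond to catecholamines. DRD4 and DRD2, which inhibit adenylyl cyclase, had 3′-UTR peaks at 11.7 (log10 p −39.3) and 8.44 (−34.9), and DRD2 had a further firm peak at 2.60 (−7.73). DRD1, which activates the cyclase, was at 9.80 with a log10 FDR of −1.15, and DRD3 and DRD5 had no row.

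All 5 adrenergic genes with a row had a firm peak clear of other genes. A firm peak was found in 76.7% of all gene names, and the share with a clear one was not counted. ADRA1D, which raises calcium, had 11.5 (log10 p −183) in the 3′-UTR and 7.96 (−21.0) in the 5′-UTR. ADRB1, which raises cyclic AMP, had 25.1 (−6.25) at a whole step. ADRA2C had overlapping 5′-UTR rows at 15.3 and 12 (−4.70 in each), and ADRA1B had 4.20 (−5.82) and 4.09 (−4.85) in overlapping rows and 9.80 in 2 weaker peaks. Over these 4 genes, the fold of the most significant peak ranged from 4.20 in ADRA1B to 25.1 in ADRB1, and the order by p differed from the order by fold.

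Purinergic receptors sense extracellular nucleotides. Of the ATP-gated P2X channels, P2RX7 had 3 firm 3′-UTR rows at 34.9, 27.2 and 26.1 (log10 p −11.8, −7.16 and −7.52), all at whole steps and inside the noncoding gene LOC105370032, and P2RX4 had 4.36 (−4.01). P2RX6 had 13.8 and 19.6 (−32.7 and −32.4) in rows with 98 of 1250 and 54 of 1315 bases inside it, which touch THAP7-AS1 and TUBA3FP. P2RX5 had 9.80 and 7.63, above an FDR of 0.05. Of the G-protein-coupled P2Y receptors, P2RY1 had firm peaks at 29.4 (−14.7) in the 5′-UTR and 15.3 (−10.0) in the 3′-UTR, the uracil nucleotide receptors P2RY6 and P2RY4 had 16.1 (−17.4) and 24.0 (−7.16), and P2RY11 had no row.

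Opioid receptors inhibit adenylyl cyclase. OPRL1, the nociceptin receptor, had 1 peak at 25.1 (log10 p −8.77), which shares bases with a row of AL121581, and OPRD1, the delta receptor, had 4 peaks at 15.3, 10.9, 9.80 and 6.54 in the 3′-UTR, none with an FDR under 0.001. OPRM1 had no row.

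**Figure D3:**
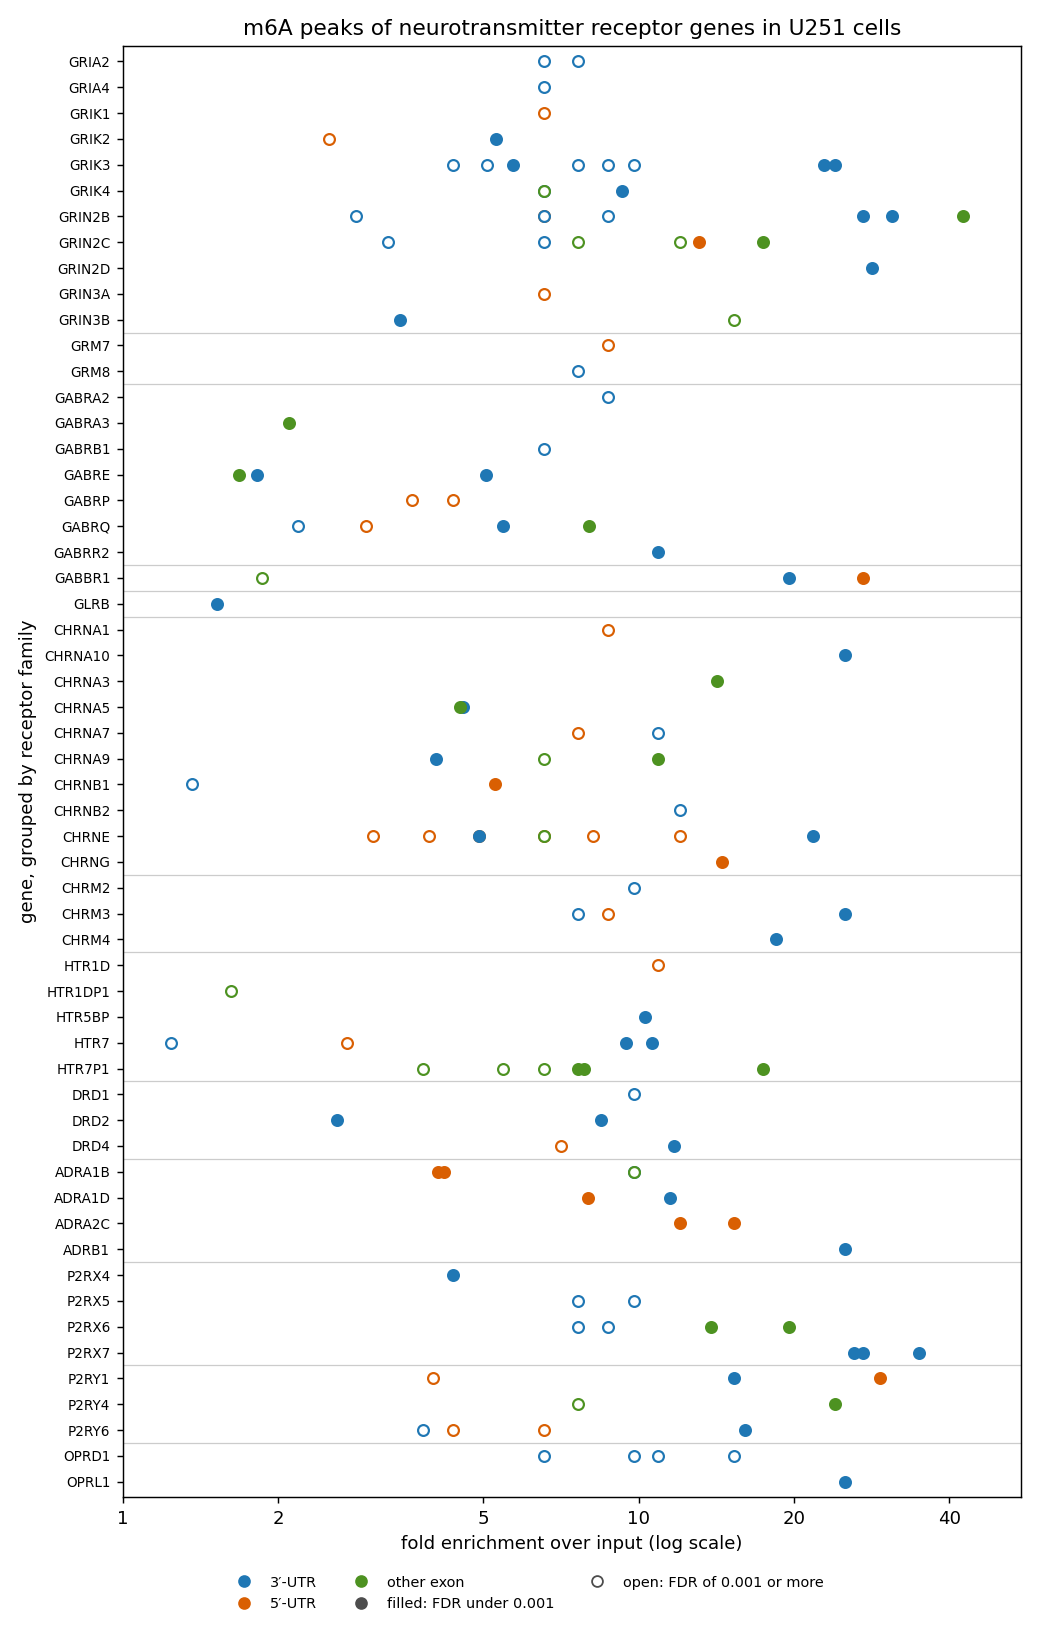
Fold enrichment over input (horizontal, log scale) of the peaks of 56 receptor genes, by gene and family, with colour for the region and filled symbols for an FDR under 0.001. Folds run from 1.24 in HTR7 to 42.5 in GRIN2B, and many open symbols stand at 6.54, 7.63, 8.71 and 9.80.

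Of the 15 genes with a log10 p of −30 or lower, 8 were clear of other RefSeq genes and of exons of other genes, among them HTR7, ADRA1D, CHRNB1, GRIK2, DRD4, GABRE and DRD2. The other 7 were CHRNG, CHRNE, GRIN3B, HTR5BP, CHRNA5, GABRA3 and P2RX6, and in 5 of the 15 the peak touched another protein-coding gene. Each gene was judged by its row of lowest p, with ties going to the higher fold, and CHRNA5 had a clear row at 4.51 with the same p as the row taken. Over all receptor peaks, 16 of 142 (11.3%, 6.58 to 17.7) touched another protein-coding gene, against 14.8% of all peaks with a RefSeq name, and the interval includes that share. In 6 rows (4.23%, 1.57 to 8.97) no base lay inside the named gene, against 6.47%. Peaks that touch another RefSeq gene, share bases with a row of another gene or have no base in their own gene were then set aside. Of the 39 coding receptor genes with an FDR under 0.001, 32 kept a firm peak. The 7 others were GRIN3B, GABRQ, CHRNE, CHRNG, P2RX6, P2RX7 and OPRL1. Peaks in exons of other genes were not set aside here, so GABRA3 counts among the 32. The share over all genes was not counted.

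The 3′-UTR was the most frequent region label of receptor peaks. Each row has a single label, however long it is. A CHRNA7 row labelled 5′-UTR, for example, covered 15134 bases of exon in 9 blocks. How much of each row lay in the labelled region was not measured. The 3′-UTR held 80 of 142 (56.3%, 47.8 to 64.6) against 44.1%, the 5′-UTR 34 (23.9%, 17.2 to 31.8) against 23.5%, and other exons 28 (19.7%, 13.5 to 27.2) against 32.3%. At an FDR under 0.001, 41 of 66 receptor peaks (62.1%, 49.3 to 73.8) lay in the 3′-UTR, against 50.2% of all such peaks, 10 (15.2%, 7.51 to 26.1) in the 5′-UTR against 24.6%, and 15 (22.7%, 13.3 to 34.7) in other exons against 25.2%. Among these firm peaks each of the 3 intervals included the background share. The 3′-UTR share of the ionotropic glutamate genes was 25 of 36 peaks, and that of the nicotinic genes 8 of 23. The nicotinic genes had 10 in the 5′-UTR, and 6 of these were the CHRNE rows that also touch C17orf107.

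**Figure D4:**
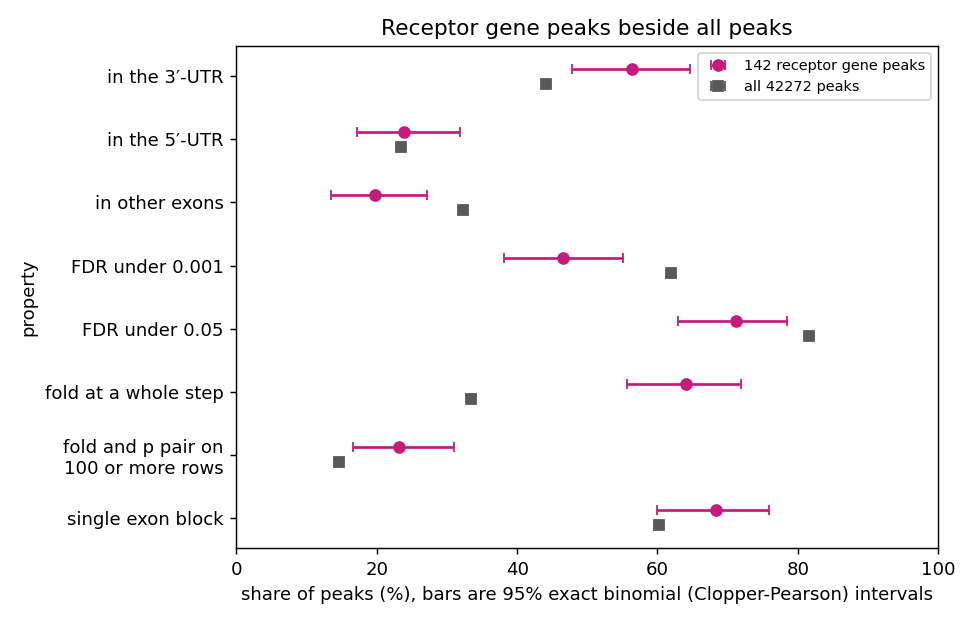
Share of receptor gene peaks (circles, with 95% exact binomial intervals) and of all peaks (squares) that have each property, in percent. The receptor share was above the square for the 3′-UTR (56.3% against 44.1%) and for folds at a whole step (64.1% against 33.4%), and below it for an FDR under 0.001 (46.5% against 62.0%).

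The rows are not all separate peaks. In the receptor genes 21 rows shared bases with another row of the same gene (14.8%, 9.39 to 21.7, against 16.5%), and merging them left 130. A gene had a median of 2 rows, and 26 of 60 (43.3%, 30.6 to 56.8) had 1, against 38.5% of all genes. Before merging 12 genes had 4 or more rows, and after it 9 had.

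Genes that act with the receptors were counted from other lists. All 7 receptor kinases and arrestins, which switch off G-protein-coupled receptors, had a peak with an FDR under 0.001, with highest folds from 3.63 in ARRB2 to 35.9 in ARRB1 and a median of 7.92. Of 44 scaffold and auxiliary subunit genes, 29 had a row and 23 a firm one, with CNIH3, an AMPA receptor auxiliary subunit, at 37.0 and NETO2, a kainate receptor auxiliary subunit, at 25.1. Of 22 transmitter transporter genes 8 had a row and 7 a firm one, and of 12 genes of transmitter synthesis 4 and 3. Beside these, 61.1% of all protein-coding genes had a row. A peak with an FDR under 0.001 was found in 76.7% of all gene names. That share is counted among genes with a row, so it compares with the genes of each list that had one.

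Markers of the glioma and astroglial lineage had rows in 10 of 11 genes, 9 of them firm, and only FABP7 had none. Their highest folds ran from 2.90 in S100B to 12.4 in SOX2, with SOX9 at 9.68 and GFAP at 9.19, and AQP4 had no firm row. Of 12 neuronal markers 8 had a row and 5 a firm one. By highest fold the firm ones were SYP at 24.0, SYT1 at 17.4, TUBB3 at 8.79, NEFL at 6.54 and MAP2 at 5.28. The NEFL peak with the lowest log10 p, −2540, was a different one, with a fold of 2.63. RBFOX3, STMN2, SLC17A6 and GAD2 had no row. Rows were found for 2 of 4 oligodendrocyte, 1 of 4 immune and 3 of 3 endothelial markers, the firm ones numbering 2, 1 and 1. The firm endothelial gene was CDH5, with a log10 p of −381. Over all protein-coding genes 61.1% had a row, and 76.7% of all gene names in the list had a firm peak. These counts give peaks and no levels, so whether the receptor RNAs themselves were abundant was not tested.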

How the data were processed

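The authors ran MeRIP-seq on poly(A) RNA of U251 cells, and 1 peak list of 42272 rows and 24 columns was analysed. Per the submitters' processing notes, fastp and HISAT2 were used, with no version given. The peak caller and build were not given in the sources used here. Of 16160 transcripts compared, 4976 (30.8%) had their start at the same base as in RefSeq GRCh38.p14 and 99.4% of 20911 spans overlapped, so positions were read as GRCh38. The deposited fold enrichment is the authors' linear ratio, the p-value (at most 0.05) is deposited per peak, and its log10 and that of the FDR are deposited too and were handled as a score. Positions and exon blocks are also as deposited by the authors.

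Members were chosen by gene name, and members and lists were chosen with earlier results of these data known. Genes named are the 25 with the lowest peak p, in each family those with the lowest p, the most peaks and the highest fold, genes with 4 or more peaks, and GRIK3, GABRE, GABRQ, OPRL1 and P2RY11. The others were named after their values were seen. Shares have 95% exact binomial (Clopper-Pearson) intervals and medians order-statistic intervals. The counting steps were tested on simulated data. Some receptor genes are counted but not reported here by name. No test was run, because the list holds no value per library. Alternatives were thresholds, merged rows, current symbols and left-out overlaps. Python 3.11.15, pandas 2.3.3, NumPy 2.4.6, SciPy 1.17.1 and matplotlib 3.10.9 were used.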

Additional observations from a re-analysis of the deposited data

How the results depend on the processing

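Of 51 alternatives, 48 left the values within their intervals or within 1.5 times the count, and 3 moved them. Taking only peaks with an FDR under 0.001 left 66 of the 142 receptor peaks. With a threshold of 0.05 the share of receptor peaks under it was 71.1% in place of 46.5%. With the median over the peaks of a gene in place of its highest fold, the median over genes was 8.71 in place of 10.9. Leaving out peaks that touch another RefSeq gene or have no base in their own was chosen after the data were seen. Bringing 769 rows to current symbols added 0 receptor genes. No paired analysis was possible because values per library are not in the list analysed, and leaving out a replicate was likewise not run. Depth is unknown, so no detection limit can be given.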
